A study of Mus musculus with 18 samples.

Results

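The E18.5 HSPC cells were 388 lineage-negative Kit+ bone marrow (BM) cells that the deposited annotation places in clusters named HSPC (hematopoietic stem and progenitor cells), out of 3477 cells in the hematopoietic progenitor (HP) library of that stage and 56201 cells in the whole series. They were taken by the name of their cluster alone, and at E18.5 that is 1 cluster, HSPC2. They made up 11.2% of the library (95% exact binomial interval 10.1 to 12.3), and the other 3089 cells fell into 18 further clusters of myeloid, erythroid, mast, lymphoid and undefined cells.

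The study sequenced mRNA and antibody tags (CITE-Seq) of single BM cells from C57B6/J mice at embryonic day (E) 16.5, E18.5, postnatal day (P) 0 and in the adult, to follow the seeding of BM by stem cells around birth. No group carries an allele or a treatment, and all groups used here are lineage-negative Kit+ cells sorted from pooled mice. The adult, P0 and E18.5 each had 1 such library and E16.5 had 2, so that a difference between E18.5 and another stage has no replicate check at E18.5, and no test between stages was run. Values are unique molecular identifier (UMI) counts summed over the cells of a group and scaled to the total of that group (CPM), with exact Poisson 95% intervals for levels and exact conditional intervals for ratios. All intervals cover counting error only.

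HSPCs sit at the top of the blood lineages. Long-term stem cells (LT-HSCs) give rise to short-term stem cells (ST-HSCs) and to multipotent progenitors (MPPs), which lean towards platelets and red cells (MPP2), myeloid cells (MPP3) or lymphoid cells (MPP4). In the fetus they expand in the liver and enter BM late, and they carry a fetal program built on the RNA-binding protein Lin28b and the chromatin protein Hmga2. Hlf and Mecom encode transcription factors that mark stem cells and maintain them, and Cd34 encodes a sialomucin found on stem cells and many progenitors.

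The HSPC cells held 10024914 UMIs, with a median of 25053.5 UMIs and 4864.5 genes in a cell, against a median of 9239 UMIs in the other cells. The other cells include undefined clusters of shallow cells, the largest of which, UD2i, held 817 cells with a median of 476 UMIs. The median mitochondrial share in HSPC cells was 2.85% and the median number of antibody counts was 200.5, against 86 in the other cells. Of all E18.5 cells, 375 shared their barcode with a cell of the adult HP library, among them 15 HSPC cells with a median of 49867 UMIs here and 440 there. With the P0 library 83 barcodes were shared and none of them belonged to an HSPC cell. No doublet caller was run.

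The name of the cluster was first set beside its markers. The authors named clusters from marker genes, so these levels describe the cluster and are no test of its name. Hlf reached 157 CPM (149 to 165) in HSPC2, 78.3 CPM (73.2 to 83.7) in the myeloid progenitor cluster MyP1, 19.97 CPM in TCell5 and at most 17.4 CPM in any other cluster. Mecom reached 34.9 CPM (31.4 to 38.8) in HSPC2 and 13.5 CPM (11.4 to 15.9) in MyP1. Cd34 stood at 310 CPM (299 to 321) in HSPC2, 288 CPM (278 to 298) in MyP1, 165 CPM in the undefined cluster UD2ii and 164 CPM in Mast3. All 3 markers were therefore highest in HSPC2, but Cd34 separated it little from MyP1. At a depth of 2000 UMIs in every cell, 25.9% of HSPC cells held an Hlf UMI (21.6 to 30.6), 8.55% a Mecom UMI and 44.3% a Cd34 UMI, while among the neutrophils of cluster Neu2, which should lack all 3, Hlf was found in 1.54% of 65 cells (0.0389 to 8.28) and Mecom and Cd34 in none, which allows up to 5.52%. Without thinning, 66.8%, 37.4% and 96.4% of HSPC cells held the 3 transcripts.

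**Figure D1:**
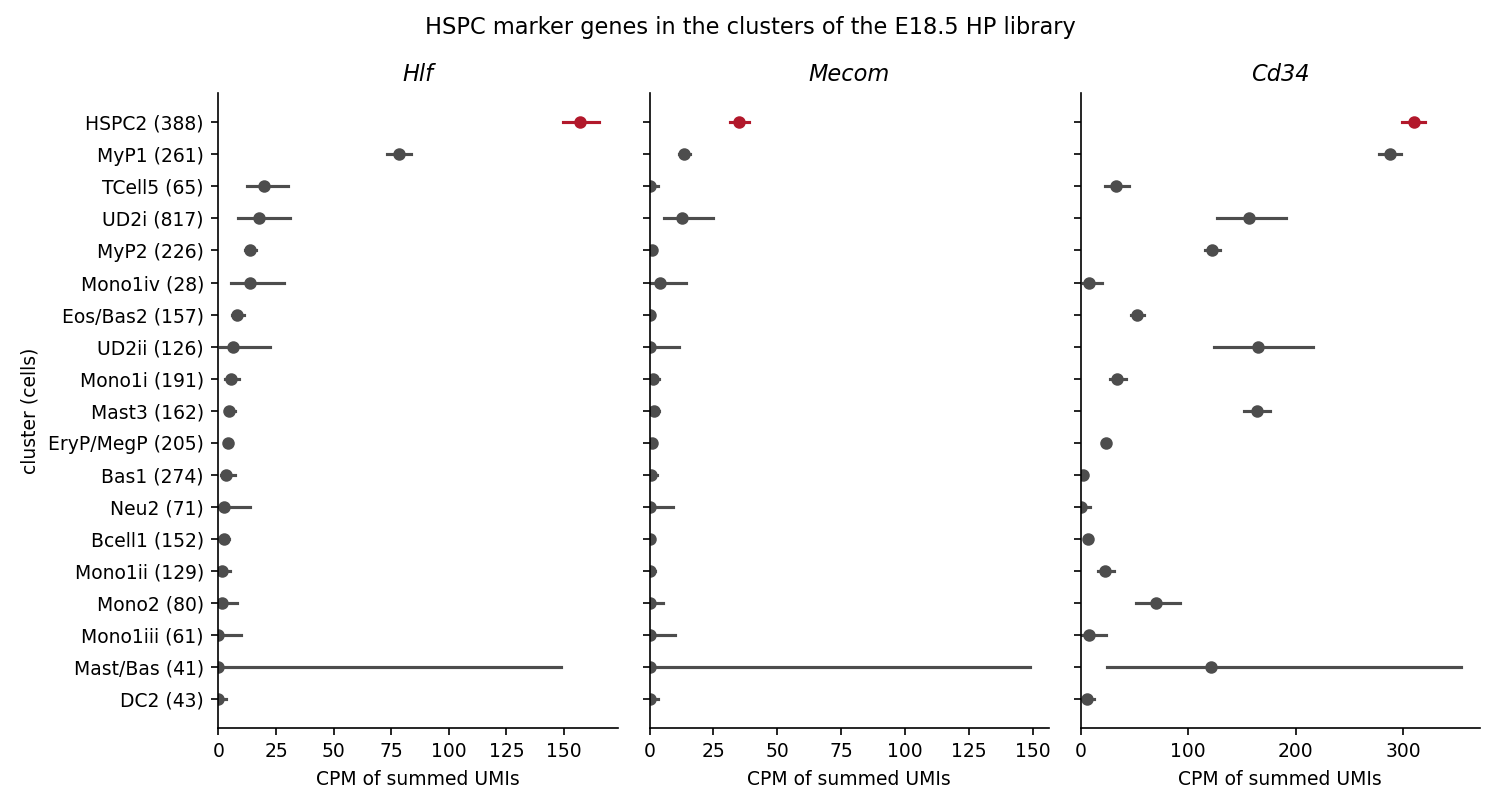
CPM of summed UMIs of Hlf, Mecom and Cd34 in the 19 clusters of the E18.5 HP library, with the number of cells in parentheses, points for the level and lines for the exact Poisson 95% interval. HSPC2 (red) lies highest for all 3 genes, MyP1 follows with 78.3, 13.5 and 288 CPM, and the wide lines of Mast/Bas come from 41 cells with a median of 534 UMIs.

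The 250 bases upstream of the RefSeq starts of Hlf and Mecom (build GRCm38.p6) are shown because both transcripts set the cluster apart and were both higher in its Sca-1+ cells. Hlf has 1 start in that table, on the minus strand at chr11:90390918-90391167, and Mecom has 2, at chr3:30509760-30510009 and chr3:30013205-30013454, also on the minus strand. Capitals mark matches on either strand to GATAA, the core bound by GATA factors such as Gata2, and to TGACAG, the core bound by Meis1 and its relatives. Each sequence runs 5′ to 3′ towards the start of its gene, and the motifs share no bases where both occur. A search found 1 GATAA match upstream of each Mecom start, 1 TGACAG match upstream of the start nearer the end of the gene, and neither motif upstream of Hlf. Of 32851 RefSeq starts, 22.6% hold GATAA and 15.9% hold TGACAG in the same window, so that these matches are a description only.
Hlf: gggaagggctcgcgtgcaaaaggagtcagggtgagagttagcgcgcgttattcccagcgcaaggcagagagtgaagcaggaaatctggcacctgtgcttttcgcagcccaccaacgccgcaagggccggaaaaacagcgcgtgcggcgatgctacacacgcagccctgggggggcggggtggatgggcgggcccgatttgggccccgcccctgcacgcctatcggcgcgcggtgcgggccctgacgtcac
Mecom, start at the higher coordinate: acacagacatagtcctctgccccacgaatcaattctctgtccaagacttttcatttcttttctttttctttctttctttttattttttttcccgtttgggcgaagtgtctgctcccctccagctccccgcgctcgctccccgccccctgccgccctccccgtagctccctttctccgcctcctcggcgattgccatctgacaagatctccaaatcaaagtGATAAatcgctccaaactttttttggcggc
Mecom, start at the lower coordinate: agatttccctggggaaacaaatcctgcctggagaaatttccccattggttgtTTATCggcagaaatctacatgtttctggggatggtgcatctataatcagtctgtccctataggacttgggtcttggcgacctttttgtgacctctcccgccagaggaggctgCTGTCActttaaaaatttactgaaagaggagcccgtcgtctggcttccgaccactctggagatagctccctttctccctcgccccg

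Against the other cells of the library, HSPC cells had higher levels of the homeobox genes Hoxa9, Hoxa10 and Nkx2-3, of the receptors Flt3 and Notch1, and of the chemokine receptor Ccr9, and lower levels of the neutrophil, monocyte, macrophage, mast cell and eosinophil and basophil markers. Of 12294 genes with at least 50 UMIs over both groups, 787 (6.40%) were past 2-fold higher and 1413 (11.5%) past 2-fold lower. These genes served for the clustering, so the contrast describes the cluster and is no test. Hlf was 7.33-fold higher (6.79 to 7.91; 157 against 21.4 CPM) and Mecom 10.1-fold (8.42 to 12.1; 34.9 against 3.47 CPM), while Cd34 was 2.83-fold higher (2.71 to 2.96; 310 against 109 CPM). Without the cells whose barcode is also in another library Hlf was 6.30-fold and Mecom 8.16-fold higher, and with the mean of per-cell CPM Hlf was 10.2-fold and Mecom 5.87-fold higher. Of the 10 HSPC markers 9 were past 2-fold higher, and Mllt3, a regulator of stem cell self-renewal, stood at 24.9 against 13.2 CPM (1.90-fold, 1.64 to 2.19). The 20 genes with the highest ratio among those of at least 100 CPM included Hbb-bt, Hlf, Hoxa9, Flt3, Gimap6, Tsc22d1, Adgrl4, Ctla2a, Trbc2, Notch1, Cd27, Cd93, Dusp2, Msi2, Hmga2, Gimap1, Egfl7, Ifi203 and Dnmt3b. The 10 with the lowest were the basophil protease gene Prss34 and Stfa2, Stfa2l1, S100a9, S100a8, BC100530, Retnlg, Ngp, Stfa1 and Gm5483, among them genes of neutrophils. With no floor on the level, the 10 highest ratios fell on rare transcripts led by Stc1 and held 1 lymphoid marker (Ccr9), 1 stromal marker (Col3a1) and none of the HSPC list (Stc1 was named after its value was seen).

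Among regulators of stem cells, 13 of 29 genes were past 2-fold higher and 1 was lower, beside 6.40% and 11.5% of all genes. Hoxa9 stood at 121 against 17.6 CPM (6.85-fold, 6.29 to 7.46), Hoxa7 at 67.2 against 14.2 CPM (4.73-fold) and Hoxa10 at 17.3 against 1.40 CPM (12.3-fold, 9.34 to 16.3). These homeobox genes pattern early progenitors and were joined by Nkx2-3 (13.4-fold), the proto-oncogene Mycn (8.62-fold, 60.5 against 7.02 CPM) and the RNA-binding protein gene Msi2 (3.34-fold). Gata2, a factor of stem cells and also of mast cells and basophils, was the one lower gene, at 38.01 against 149 CPM (0.255-fold, 0.230 to 0.283). Among surface and membrane genes 17 of 23 were past 2-fold higher, beside 6.40% of all genes. They include Procr (the protein C receptor EPCR, 9.45-fold) and Emcn (an endothelial and stem cell sialomucin, 10.7-fold). Kit, on which the cells were sorted, differed little (153 against 123 CPM, 1.24-fold), and so did Cd48 (1.30-fold). Slamf1, which encodes CD150, was seen in 26 UMIs only (1.12-fold, 0.704 to 1.72).

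The other cells hold mature lineages, so the same lists were read against the other 3 progenitor clusters alone (MyP1, MyP2 and EryP/MegP). There 10.4% of 11125 genes were past 2-fold higher and 4.04% lower. Hlf was 4.57-fold higher (4.22 to 4.95), Mecom 6.33-fold (5.25 to 7.67) and Cd34 2.03-fold (1.94 to 2.12), and 9 of 10 HSPC markers were past 2-fold, or 7 once the median ratio of all genes (1.08) was set to 1. The 8 myeloid progenitor genes were all lower. Elane (neutrophil elastase) stood at 5.09 against 1251 CPM (0.00407-fold) and Mpo (myeloperoxidase) at 275 against 1871 CPM (0.147-fold). Gata2 lay within 2-fold of these progenitors, at 38.01 against 58.3 CPM (0.652-fold, 0.582 to 0.729). The median ratio of the S phase list was 0.772 with 4 of 43 genes past 2-fold lower, and that of the G2 and M phase list was 0.971 with 1 of 52 higher.

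**Figure D2:**
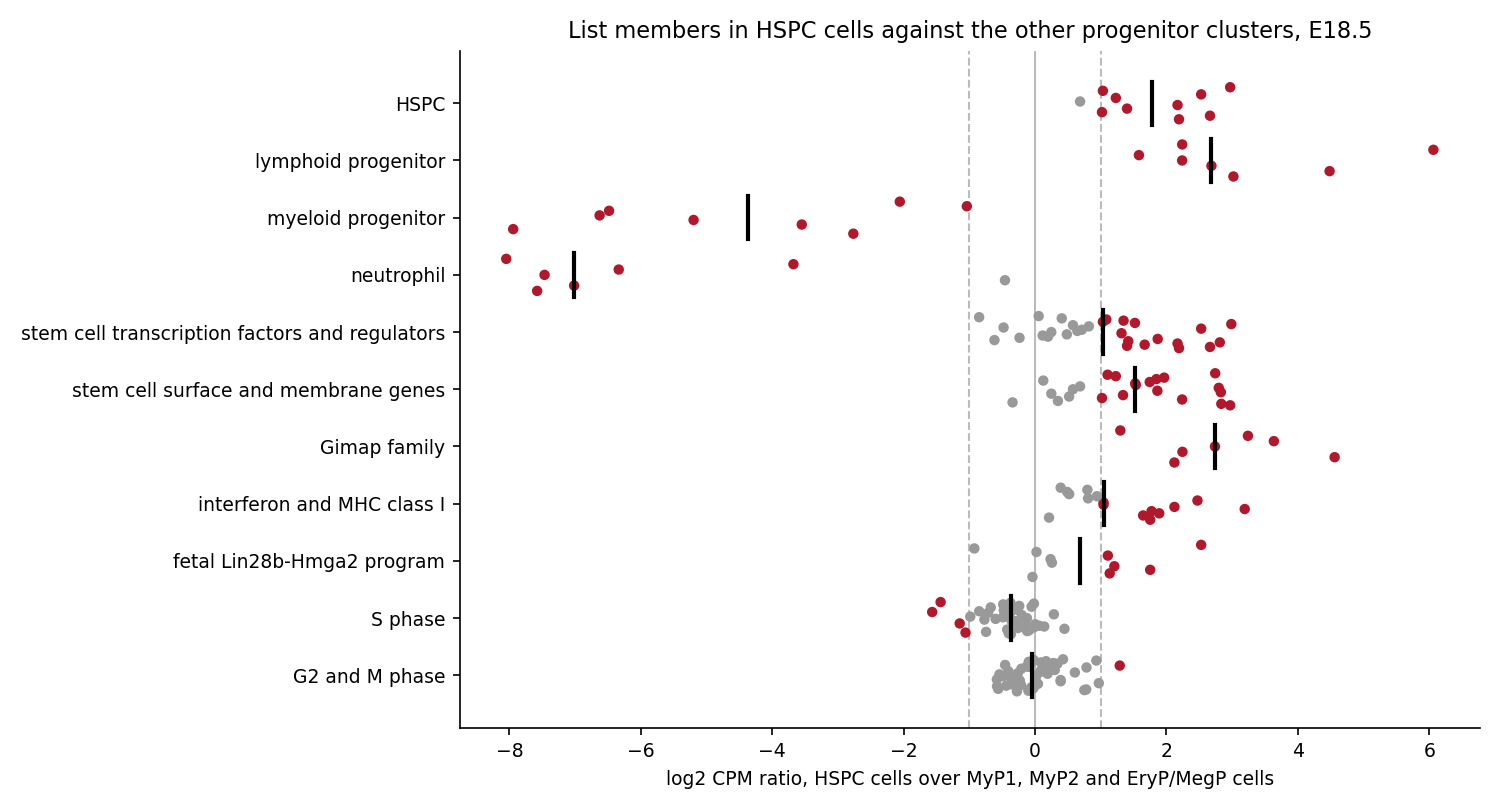
Log2 CPM ratio of HSPC cells over MyP1, MyP2 and EryP/MegP cells for the members of 11 gene lists with at least 50 UMIs, with red points past 2-fold (dashed lines) and a black bar at each list's median. The lymphoid, HSPC and Gimap lists lie to the right, with 7 of 7, 9 of 10 and 7 of 7 members past 2-fold, and the myeloid progenitor list lies to the left with 8 of 8.

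Genes of lymphoid progenitors were a second component of the cluster. All 7 measured genes of that list were past 2-fold higher than in the other progenitors, beside 10.4% of all genes, with a median of 6.43. Ccr9, which guides lymphoid progenitors to the thymus, stood at 95.5 against 1.43 CPM (66.9-fold, 49.3 to 93.0). Il7r, the interleukin 7 receptor, stood at 46.6 against 5.74 CPM (8.11-fold) and the recombinase gene Rag1 at 20.1 against 0.896 CPM (22.4-fold, 14.9 to 34.8). Trbc2, a constant region of the T cell receptor, was 9.45-fold higher, Ebf1, the factor that specifies B cells, 12.0-fold and Mzb1, a chaperone of B cells, 11.4-fold. The gap was smaller to MyP1 for some of these genes. MyP1 held 64.3 CPM of Flt3, 46.6 of Trbc2 and 14.1 of Il7r, against 127, 183 and 46.6 CPM in HSPC2. Ccr9 stood at 2.92 CPM in MyP1. Against all other cells of the library, which include B and T cells, Ccr9 remained 23.9-fold higher (20.6 to 27.8) and Il7r stood at 1.60-fold and Ebf1 at 0.760-fold. Trbc2 reached 183 CPM in HSPC2 and 1094 CPM in TCell5, and Ccr9 95.5 and 110 CPM. Dntt, the terminal transferase, had 38 UMIs in 9 HSPC cells and none in the other cells.

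Ccr9, Il7r, Rag1 and Ebf1 were unevenly spread over the cells. The 38 cells with the most Ccr9 UMIs held 78.7% of them, and the like share in 38 cells was 79.9% for Il7r, 92.5% for Rag1 and 78.6% for Ebf1, against 37.2% for Hlf, 24.7% for Cd34 and 26.3% for Hmga2. Other lymphoid genes were spread more evenly, with 31.3% for Flt3, 34.5% for Satb1, 37.4% for Notch1 and 51.2% for Trbc2. Stem cell genes of low counts were concentrated too, with 74.4% for Procr, 54.6% for Mecom and 54.8% for Mllt3. Splitting the HSPC cells by whether a UMI of 1 gene was seen gave sets of similar but not equal median depth. It was 23608 against 25575 UMIs with and without Ccr9, and 27305 against 23982 with and without Ebf1. The 145 cells with a Mecom UMI had a median of 24242 UMIs and the other 243 a median of 25632. Among them Hlf stood at 278 against 87.1 CPM (3.20-fold, 2.88 to 3.55) and Procr at 27.3 against 5.19 CPM (5.26-fold). Il7r had a UMI in 2 of the 145 cells (1.38%) and in 35.0% of the cells without Mecom, with levels of 0.818 against 73.0 CPM (0.0112-fold, 0.00230 to 0.0330). Ebf1 was seen in 6.21% against 35.8% of the cells and Rag1 in 1.38% against 21.0%. The Mecom transcript and the transcripts of B lymphoid commitment thus lay largely in different cells of the cluster.

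Ccr9 marked a set that overlapped the Ebf1 cells more than the Mecom cells. Of its 109 cells 52 (47.7%) held an Hlf UMI, 17 (15.6%) a Mecom UMI and 60 (55.0%) an Ebf1 UMI. Among the 279 cells without Ccr9 these shares were 74.2%, 45.9% and 12.9%. In the Ccr9 cells Trbc2 was 5.69-fold higher (456 against 80.2 CPM), Notch1, the receptor that drives T cell fate, 2.95-fold (211 against 71.5 CPM) and Flt3 2.12-fold. Of the 96 cells with an Ebf1 UMI, 60 (62.5%) also held Ccr9 and 32 (33.3%) Hlf. In those Ebf1 cells Hlf stood at 48.2 against 198 CPM in the rest (0.244-fold, 0.202 to 0.292), while Cd34 stood at 260 against 328 CPM and Hmga2 at 458 against 318 CPM. The split genes were part of the clustering, and whether doublets add to these sets was not tested.

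Globin transcripts gave a further pattern. Hbb-bt, an adult beta globin, had the highest ratio of all genes of at least 100 CPM, at 470 CPM (456 to 483) in HSPC2 against 37.7 CPM in the other cells (12.5-fold, 11.8 to 13.1). MyP1 stood at 148 CPM and EryP/MegP, the cluster of red cell and platelet progenitors, at 28.9 CPM. The alpha globin Hba-a1 had 1 UMI in HSPC cells and 33 in the others (0.0998 against 0.602 CPM). The beta globin Hbb-bs stood at 2.29 against 1.30 CPM (1.77-fold, 1.06 to 2.87), with 13 of its 23 UMIs in 1 HSPC cell. Of the HSPC cells 208 held an Hbb-bt UMI, and in cells with a Mecom UMI its level was 925 CPM against 207 CPM in those without (4.48-fold, 4.20 to 4.78). In Neu2 it had 1 UMI.

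The fetal program was measured through 10 genes, of which 5 were past 2-fold higher than in the other cells (Hmga2, Igf2bp1, Igf2bp2, Dnmt3b and Mycn) and E2f2 was lower, beside 6.40% and 11.5% of all genes. Hmga2 stood at 356 against 108 CPM (3.29-fold, 3.16 to 3.43) and was seen in 378 of the 388 cells. It separated HSPC2 little from MyP1, which held 285 CPM (275 to 295) with a UMI in 98.1% of its cells. Dnmt3b, a DNA methyltransferase, stood at 152 against 48.4 CPM (3.13-fold) and Igf2bp2, an RNA-binding protein gene downstream of Hmga2, at 44.1 against 14.0 CPM (3.15-fold). Lin28b itself stood at 18.7 against 15.9 CPM (1.17-fold, 0.997 to 1.38). Of 8 imprinted growth genes, 5 were higher, among them Meg3 (20.6-fold, with 51 of its 113 UMIs in 1 cell), Dlk1 (3.17-fold) and the cell cycle inhibitor Cdkn1c (26.0 against 8.48 CPM, 3.07-fold). Of the 8 Gimap genes, a family of small GTPases of lymphoid cells and stem cells, 7 were higher. Against the other 3 progenitor clusters, the same 5 genes of the fetal program were past 2-fold higher, beside 10.4% of all genes. Mycn was 5.77-fold higher and Igf2bp1 3.37-fold, but Igf2bp2 2.31-fold, Hmga2 2.2-fold and Dnmt3b 2.16-fold. The other 5 lay within 2-fold, with Arid3a at 1.18-fold, Lin28b at 0.974-fold (0.821 to 1.15) and E2f2 at 0.527-fold.

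Receptors that read niche signals differed in both directions. Of 22 genes 3 were past 2-fold higher, among them Flt3 and Notch1, and 6 were lower, beside 6.40% and 11.5% of all genes, among them Cxcr4, the receptor of the homing chemokine Cxcl12, at 17.1 against 35.0 CPM (0.487-fold, 0.414 to 0.570). Igf1r, the receptor of insulin-like growth factor 1, stood at 59.6 against 79.1 CPM (0.753-fold, 0.690 to 0.820). Against the other progenitors Cxcr4 stood at 0.804-fold and Igf1r at 0.859-fold. Of 16 interferon and MHC class I genes 3 were higher than in the other cells and 9 than in the other progenitors (beside 10.4% of all genes), where Isg15, an interferon-induced ubiquitin-like protein, stood at 104 against 18.7 CPM (5.55-fold).

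Markers of other cell types were looked for in the cluster. Every gene of the neutrophil, monocyte, macrophage, mast cell and eosinophil and basophil lists (8 of 8 in each, beside 11.5% of all genes) was past 2-fold lower than in the other cells, which hold those lineages, and the summed level of the neutrophil list was 20.7 against 3799 CPM. Against the other 3 progenitor clusters 6 of 7 neutrophil genes were past 2-fold lower, as were 2 of 8 monocyte, 1 of 5 macrophage, 3 of 5 mast cell and 1 of 3 eosinophil and basophil genes, beside 4.04% of all genes. There C1qa stood at 0.912-fold, C1qb at 1.04-fold and the mast cell protease gene Cma1 at 1.85-fold (1.35 to 2.52), and the cathepsin gene Ctss was past 2-fold higher (2.91-fold, 2.50 to 3.39). The B cell list summed to 175 against 553 CPM and the erythroid list to 710 against 247 CPM. Hbb-bt gave 470 of the 710 CPM in HSPC cells and 37.7 of the 247 CPM in the other cells. The stromal collagens Col1a1, Col1a2 and Col3a1 were higher, with 84 of 87, 71 of 71 and 61 of 61 UMIs in 1 cell of 4917 UMIs, and that cell also sets the ratios of the collagens in every split below. The complement genes C1qa, C1qb and C1qc of macrophages were seen in 11 to 24 HSPC cells, at 0.0344-fold to 0.0446-fold of the other cells.

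Antibody counts were not used in the clustering and give an independent reading. After a centered log-ratio (CLR) over the cells of the library, a cell above 1 was called positive, which needed 8 counts for Sca-1, 4 for CD135 (the protein of Flt3), 81 for CD48 and 6 for CD150. Of HSPC cells 60.1% were Sca-1+ (55.0 to 65.0), against 11.5% of the other cells (10.4 to 12.6). CD135 was positive in 32.2% (27.6 to 37.1) against 3.82% and CD48 in 80.7% (76.4 to 84.5) against 48.9%. CD150 was positive in 19.6% (15.8 to 23.9) against 10.4%. All 4 shares were thus higher in HSPC cells, with median counts of 12, 2, 168 and 3 against 2, 1, 77 and 2, and the shares of the other cells include undefined cells with few counts. HSPC2 had the highest CD135 share of the clusters named here, ahead of Mono1ii (15.5%) and MyP1 (13.4%), whereas Sca-1 was also positive in 48.8% of Mono1ii and 47.6% of Mono1i cells, and CD150 in 62.9% of EryP/MegP cells. CD48 did not set HSPC2 apart from every well-covered cluster, since it was positive in 88.1% of MyP1, 81.5% of EryP/MegP and 95.4% of Bcell1 cells. The share was lower in MyP2 (65.5%), TCell5 (63.1%) and Mono1ii (55.8%), and was 1.35% in UD2i cells. The transcripts followed the antibodies, with ratios of positive over negative HSPC cells of 4.70 for Ly6a (which encodes Sca-1), 2.02 for Flt3 and 2.47 for Cd48. Slamf1, with 26 UMIs, was under the minimum of 50 UMIs and stood at 9.88 against 0.864 CPM (11.4-fold, 4.60 to 32.2).

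Combining the antibodies into gates modelled on those of sorted cells split the cluster into classes. They departed from the sorting gates in that MPP4 had no CD48 condition and no gate used c-Kit or lineage antibodies. The LT-HSC gate (Sca-1+ CD135- CD48- CD150+) held 23 HSPC cells (5.93%, 3.79 to 8.76), the ST-HSC gate (CD150- instead) 24 (6.19%), the MPP2 gate (CD48+ CD150+) 23, the MPP3 gate (CD48+ CD150-) 78 (20.1%) and the MPP4 gate (CD135+ CD150-) 73 (18.8%). A further 12 cells were Sca-1+ CD135+ CD150+ and 155 (39.9%, 35.0 to 45.0) were Sca-1-. The sizes depended on the CLR level, since at 0.75 and 1.5 the ST-HSC gate held 2.84% and 16.8% of HSPC cells, the MPP2 gate 12.1% and 1.80%, the MPP4 gate 24.2% and 3.87% and the Sca-1- set 25.3% and 55.7%. Of all cells of the library inside the LT-HSC gate, 23 of 33 (69.7%, 51.3 to 84.4) were HSPC cells, and of those inside the MPP4 gate 61.3%. The MPP3 gate held 272 cells, of which 28.7% were HSPC cells and 59 belonged to Mono1i. An antibody gate therefore drew on other clusters to a different extent in each class.

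Transcripts differed between the gates. Mecom stood at 205 CPM (165 to 251) in the LT-HSC gate, 109.7 (81.1 to 145) in the ST-HSC gate, 43.7 in the MPP2 gate, 29.4 in the MPP3 gate, 37.5 in the MPP4 gate and 9.84 (7.09 to 13.3) in Sca-1- cells. Hlf was highest in the ST-HSC gate (407 CPM, 350 to 471), followed by the LT-HSC gate (292 CPM, 245 to 347), stood at 172 to 210.3 CPM in the MPP2, MPP3 and MPP4 gates and at 67.7 CPM in Sca-1- cells. Mllt3 (136 CPM) and Slamf1 (24.2 CPM) were highest in the LT-HSC gate, and so was Hbb-bt (1456 CPM, 1347 to 1571), which stood at 209 CPM in Sca-1- cells. Procr did not separate the LT-HSC gate (66.0 CPM, 44.5 to 94.2) from the ST-HSC gate (55.9 CPM, 36.2 to 82.6).

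Lymphoid transcripts went the other way. Ccr9 had no UMI in the LT-HSC gate, which allows up to 8.11 CPM, and none in the MPP2 gate, while it stood at 94.0 CPM (67.7 to 127) in the ST-HSC gate, 91.0 CPM in the MPP3 gate and 209 CPM (189 to 231) in the MPP4 gate. Trbc2 stood at 11.0, 4.85 and 322 CPM in the LT-HSC, MPP2 and MPP4 gates and at 166 CPM in the ST-HSC gate. Ebf1 stood at 2.20 CPM in the LT-HSC gate, 4.48 CPM in the ST-HSC gate and 103 CPM in the MPP4 gate, and was highest in Sca-1- cells (118 CPM, 108 to 129). Mpo stood at 434 CPM (414 to 454) in Sca-1- cells and at 552 CPM (475 to 638) in the 12 Sca-1+ CD135+ CD150+ cells, against 11.0 CPM (3.57 to 25.7) in the LT-HSC gate and 33.6 to 178 CPM in the other gates. In summed UMIs the ST-HSC gate thus held Ccr9 and Trbc2 beside high Hlf and little Ebf1. The Sca-1- cells held both Ebf1 and Mpo. Whether few cells of a gate set these levels, and whether the transcripts shared cells, was not tested.

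**Figure D3:**
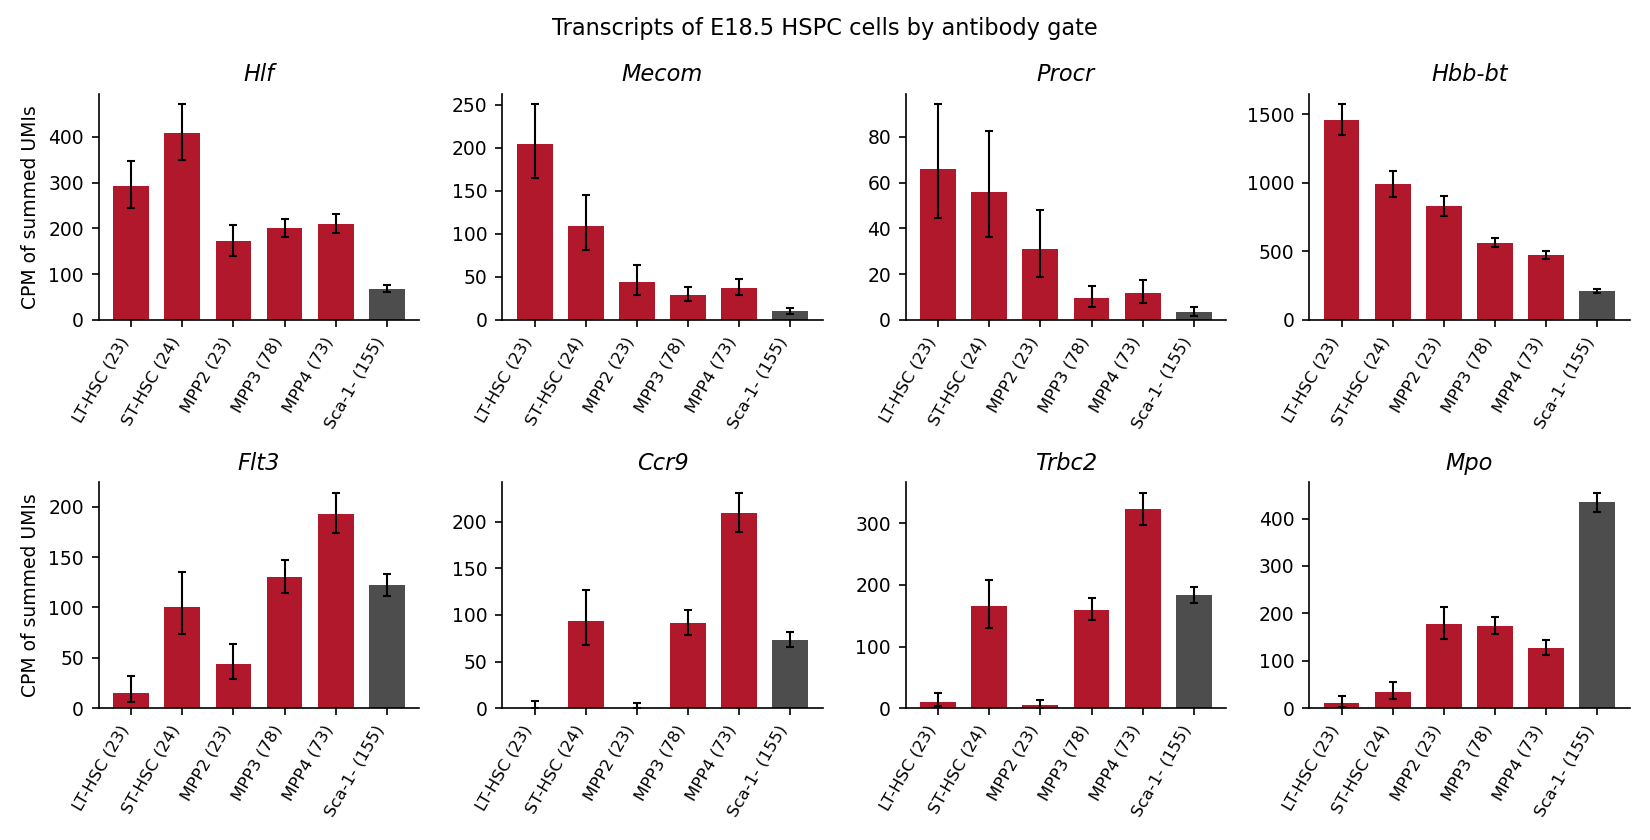
CPM of summed UMIs of 8 genes in E18.5 HSPC cells by antibody gate, with the number of cells in parentheses, bars for the level (Sca-1- cells in grey) and lines for the exact Poisson 95% interval. Mecom and Hbb-bt are highest in the LT-HSC gate (205 and 1456 CPM), Ccr9 and Trbc2 in the MPP4 gate (209 and 322 CPM) and Mpo, of the 6 sets drawn, in Sca-1- cells (434 CPM).

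Sca-1+ and Sca-1- cells of the cluster differed by 136 genes past 2-fold higher (1.46% of 9334) and 44 lower (0.471%). Hlf stood at 223 against 67.7 CPM (3.30-fold, 2.90 to 3.76), Mecom at 53.5 against 9.84 CPM (5.44-fold, 3.93 to 7.70) and Procr at 20.7 against 3.28 CPM (6.31-fold, 3.61 to 11.9). Cd34 did not separate them (318 against 299 CPM, 1.06-fold, 0.991 to 1.14), nor did Flt3 (130.5 against 122 CPM, 1.07-fold). Of the 10 HSPC markers 4 were past 2-fold higher, and of 21 surface genes 8, among them Esam, Ramp2 and Ly6a, the gene of Sca-1 itself. Hbb-bt (3.17-fold, 2.95 to 3.42), the carbonic anhydrase gene Car2 (2.92-fold) and Cdkn1c (3.56-fold) were higher, and Mpo (157 against 434 CPM, 0.363-fold) and Ctsg (cathepsin G, 0.147-fold) lower.

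The same split was made in P0 and adult HSPC cells. These cells are no independent check, since the lists were set with earlier results of these data known. Mzb1 was also among the genes named by their ratio over P0. Hlf was 4.24-fold higher in Sca-1+ cells at P0 (3.93 to 4.58), 3.06-fold in the HSPC2 cluster of P0 alone and 8.10-fold in the adult (6.13 to 10.9), and Mecom 7.76-fold, 6.02-fold and 5.75-fold. Mpo stood at 0.379-fold, 0.304-fold and 0.330-fold there, close to the 0.363-fold of E18.5. Genes of B lymphoid commitment took the other side at E18.5. Il7r was 0.500-fold in Sca-1+ cells at E18.5 (0.413 to 0.604), 1.53-fold at P0 (1.15 to 2.06) and 2.16-fold in the adult (1.60 to 2.97). Ebf1 was 0.502-fold at E18.5 (0.436 to 0.577), 2.26-fold at P0 (1.67 to 3.09) and 3.01-fold in the adult, and Mzb1 0.487-fold, 1.79-fold and 4.12-fold. The P0 library has a further cluster of lymphoid progenitors, LymP, with 388 cells and 177 CPM of Ebf1, and no E18.5 cluster carries that name. The differences of Il7r, Ebf1 and Mzb1 between stages were not tested. Ly6a followed the antibody less at E18.5 (4.70-fold, 3.54 to 6.35) than at P0 (17.1-fold, 13.9 to 21.4).

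CD135+ and CD135- cells differed by 135 genes higher (1.45%) and 101 lower (1.08%). Of 7 lymphoid progenitor genes 5 were past 2-fold higher, among them Flt3, the gene of CD135 itself. Ccr9 stood at 176 against 54.1 CPM (3.25-fold, 2.84 to 3.71), Flt3 at 190 against 94.0 CPM (2.02-fold, 1.81 to 2.26) and Rag2 at 2.98-fold. Ebf1 (150 against 50.6 CPM, 2.95-fold), Ighm, the heavy chain of immunoglobulin M (2.87-fold), and Trbc2 (2.53-fold) were higher too. Of 52 G2 and M phase genes 5 were past 2-fold higher with a list median of 1.56, among them Cenpf, Nusap1 and Ube2c. Of 21 surface genes 6 were lower, and so was Gata2 (0.484-fold), while Mecom stood at 0.613-fold (0.474 to 0.786), and Hlf at 0.959-fold (0.862 to 1.07). Among P0 and adult HSPC cells Ebf1 was 3.84-fold and 3.08-fold higher in CD135+ cells and Ighm 2.96-fold and 3.17-fold.

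**Figure D4:**
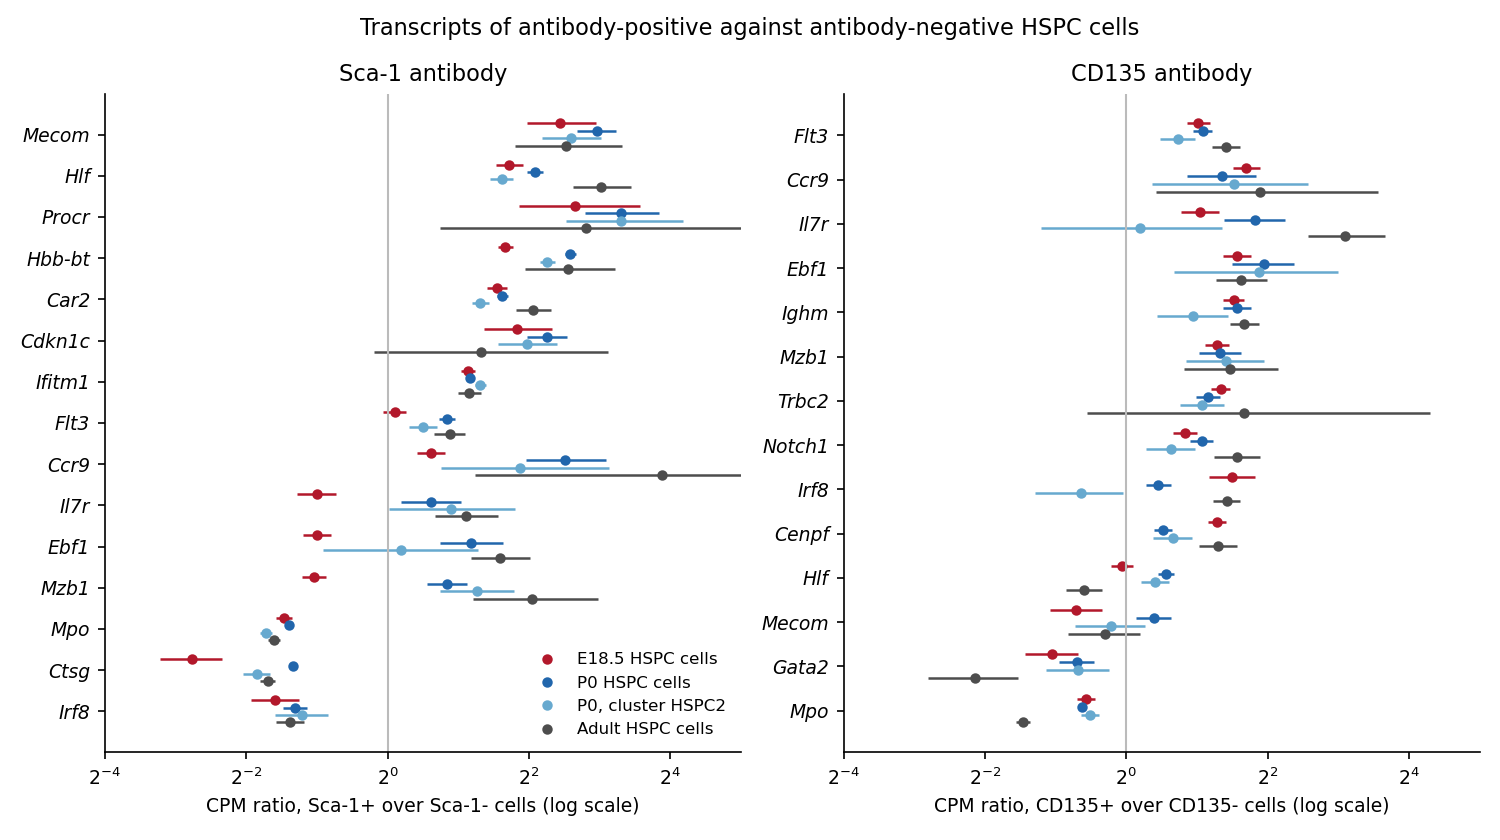
CPM ratio of antibody-positive over antibody-negative HSPC cells on a log scale, for Sca-1 (left) and CD135 (right), with points for E18.5, P0, the HSPC2 cluster of P0 and adult and lines for the exact 95% interval (2 adult intervals run past the right edge of the Sca-1 panel, and Irf8, a factor of monocytes and dendritic cells, was added after its values were seen). Mecom, Hlf and Procr lie right of 1 and Mpo left of 1 in the Sca-1 panel in all 4 sets of cells, whereas Il7r, Ebf1 and Mzb1 lie left of 1 at E18.5 only.

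CD48 and CD150 were read in the same way. CD48- cells, 75 in number, had 110 CPM of Mecom against 21.8 CPM in the 313 CD48+ cells (0.198-fold, 0.159 to 0.245), and Hlf at 277 against 136 CPM (0.492-fold). Mpo was 3.19-fold higher in CD48+ cells, and 8 of 52 G2 and M phase genes were past 2-fold higher, beside 1.70% of all genes higher and 1.45% lower. In the 76 CD150+ cells, 1.60% of genes were past 2-fold higher and 2.75% lower than in the 312 CD150- cells. All 7 lymphoid progenitor genes were lower there, with Il7r at 2.60 against 57.0 CPM (0.0456-fold, 0.0147 to 0.107) and Ccr9 at 13.5 against 115 CPM (0.118-fold), and Trbc2 stood at 0.104-fold. The platelet factor gene Pf4 (5.88-fold), Gata2 (3.58-fold), Mecom (3.02-fold) and Mllt3 (2.95-fold) were higher, as were 6 of 7 imprinted growth genes. Some of these genes were concentrated over the HSPC cells. A single cell held 23 of 91 UMIs for Pf4, 51 of 113 for Meg3 and 22 of 140 for H19, against 16 of 261 for Cdkn1c. Whether such cells set the ratios was not tested.

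Cell cycle genes were read as the share of each cell's UMIs after thinning to 2000. In 386 HSPC cells the S phase list took 0.348% ± 0.228 (SD over cells) and the G2 and M phase list 0.659% ± 0.617, against 0.297% ± 0.259 and 0.651% ± 0.617 in the other cells and 0.455% ± 0.209 and 0.885% ± 0.361 in MyP1. In Neu2 neutrophils they took 0.0454% and 0.360%, and in Bas1 basophils 0.0792% and 0.234%. Thinning left out 1004 of the other cells and 2 HSPC cells. Over all cells without thinning the S phase share was 0.350% in HSPC cells against 0.329%. The G2 and M phase share was then 0.661% against 0.697%, the opposite order. For S phase the gates ranged from 0.270% (LT-HSC) and 0.285% (MPP4) to 0.374% (Sca-1- cells) and 0.423% (MPP2). MPP3 stood at 0.364% and the 12 Sca-1+ CD135+ CD150+ cells at 0.371%. For G2 and M phase the gates ranged from 0.359% (LT-HSC) and 0.458% (ST-HSC) to 0.792% (MPP4) and 0.996% in those 12 cells. The SD between cells of a gate was 0.178 to 0.327 points for S phase and 0.460 to 0.708 points for G2 and M phase. The authors' phase labels put 57.2% of HSPC cells in S, 30.2% in G2M and 12.6% in G1 (9.49 to 16.4), and 29.2% of the other cells in G1. The other progenitor clusters were lower than HSPC cells, with 0.383% of MyP1, 0.442% of MyP2 and 0 of 205 EryP/MegP cells in G1. Whether the labels depend on depth was not tested, and the share of the other cells includes the shallow undefined clusters.

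The deposited hscScore, a score trained to find stem cells, averaged 0.0453 ± 0.0726 (SD, 388 cells) in HSPC cells and 0.121 ± 0.117 in the other cells. It varied with depth, from 0.111 in 7 HSPC cells under 8000 UMIs and 0.169 in 50 cells of 8000 to 16000 UMIs to 0.0348 in 242 cells of 16000 to 32000 and -0.00122 above. The other cells averaged 0.219, 0.119, 0.0252 and -0.00403 in the same bands, so that HSPC cells were lower in the shallowest band and higher in the other 3. The shallowest band set 7 HSPC cells against 1445 other cells. Over 8000 to 32000 UMIs together HSPC cells averaged 0.0579 ± 0.0770 and the other cells 0.0704 ± 0.0798. Of these 292 HSPC cells 242 had 16000 UMIs or more, against 446 of 862 other cells, so that the joint means are not matched for depth. Among the gates the LT-HSC gate averaged 0.138, the ST-HSC gate 0.111, the MPP4 gate 0.0494, the MPP2 gate 0.0380 and the MPP3 gate 0.0369. In the band of 8000 to 16000 UMIs the LT-HSC gate stood at 0.276 (8 cells) and the ST-HSC gate at 0.219 (7 cells). The MPP4, MPP3 and MPP2 gates stood there at 0.164 (13 cells), 0.118 (7 cells) and 0.113 (5 cells). In the band of 16000 to 32000 UMIs the ST-HSC gate stood at 0.0701, the LT-HSC gate at 0.0637, the MPP3 gate at 0.0365, the MPP4 gate at 0.0292 and the MPP2 gate at 0.0244, with SDs over cells of 0.0311 to 0.0676. The order of the LT-HSC and ST-HSC gates thus differed between the bands.

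HSPC cells of E18.5 were then set beside those of the other stages. In the P0 library 1505 cells (24.2%) were HSPC cells of 3 clusters, in the adult 629 (10.5%) and in the E16.5 libraries 33 (5.89%) and 165 (3.47%). Against P0, 2.93% of 11379 genes were past 2-fold higher at E18.5 and 2.60% lower, and against the P0 cluster of the same name, HSPC2, 2.43% and 1.75%. Against the adult 8.53% were higher and 3.77% lower, with a median ratio of 1.23 (0.30 on the log2 scale) and adult cells of 7636 UMIs at the median. With the median of ratios as the scaling, the balance turned to 401 genes higher and 641 lower, from 864 and 382. The 2 libraries of E16.5 differed from each other by 8.12% of 7254 genes, both directions together, which is the only measure here of the spread between libraries of a stage. It rests on 33 and 165 cells. Both directions together, E18.5 differed from P0 by 629 of 11379 genes and from P0 HSPC2 by 437 of 10465, which are smaller shares. From the adult it differed by 1246 of 10130 genes, a larger share. The comparisons with E18.5 share its cells. The E16.5 cells named HSPC carried few stem cell transcripts (Hlf at 19.2 and 21.2 CPM, Mecom at 0 and 1.87 CPM) and much Cd74 (7104 and 2397 CPM), a gene of antigen-presenting cells, and Cma1 (1725 and 2278 CPM), a gene of mast cells, both named after their values were seen. Their markers go against the name, and 15.5% and 13.4% of genes were past 2-fold from E18.5.

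Stem cell genes were next compared between the stages. Hlf stood at 157 CPM at E18.5, 114 at P0 (1.38-fold, 1.30 to 1.46), 151 in the P0 HSPC2 cluster (1.04-fold, 0.969 to 1.12) and 115 in the adult (1.37-fold). Mecom stood at 34.9, 26.95, 35.1 and 27.7 CPM in the same order, and Cd34 at 310, 309, 343 and 269 CPM. Of 10 HSPC markers 1 was past 2-fold higher than at P0 and none than in P0 HSPC2, beside 2.93% and 2.43% of all genes. Hoxa9 was highest at E18.5, at 121 CPM against 62.0 at P0 (1.95-fold, 1.81 to 2.10) and 50.3 in the adult (2.40-fold, 2.11 to 2.75).

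Of the genes of at least 100 CPM, Mzb1, Ighm and Trbc2 had the highest ratios over P0, followed by Lars2 (2.96-fold). Mzb1 stood at 116 against 14.3 CPM (8.16-fold, 7.31 to 9.12) and Ighm at 154 against 29.8 CPM (5.17-fold). Trbc2 stood at 183 against 43.3 CPM (4.23-fold) and Ebf1 at 84.3 against 5.93 CPM (14.2-fold). Of 7 lymphoid progenitor genes 5 were past 2-fold higher (median 5.56), beside 2.93% of all genes. The size of the difference depended on which P0 clusters were counted. The LymP cluster of P0 held 147 CPM of Ccr9, 367 CPM of Trbc2 and 344 CPM of Ighm, and with it added to the P0 HSPC cells Mzb1 stood at 2.05-fold (1.91 to 2.21), Ighm at 1.90-fold, Trbc2 at 1.91-fold, Ebf1 at 2.50-fold and Ccr9 at 3.36-fold (3.07 to 3.67), against 17.4-fold without it. Then 4 of 8 lymphoid progenitor genes were past 2-fold higher (median 2.10), beside 1.94% of all genes higher and 2.45% lower. Bcl11a, a factor of lymphoid and stem cells, stood at 246 against 113 CPM (2.18-fold) and 1.82-fold with LymP added, and Ccnd1 (cyclin D1) at 150 against 73.5 CPM (2.04-fold) and 2.03-fold. In the E16.5 cells Ccr9 stood at 86.3 and 69.9 CPM.

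Myeloid genes were lower in the HSPC cells of E18.5. Mpo stood at 275 CPM at E18.5, 1168 at P0 (0.236-fold, 0.227 to 0.245), 598 in the P0 HSPC2 cluster (0.460-fold) and 1005 in the adult (0.274-fold). Elane stood at 5.09, 305, 16.4 and 248 CPM, and 7 of 8 myeloid progenitor genes were past 2-fold lower than at P0 and than in the adult, beside 2.60% and 3.77% of all genes. Against P0 HSPC2 alone 5 of 7 were lower, beside 1.75% of all genes, so the myeloid gap was smaller but in the same direction when the other 2 clusters of P0 were left out. The E18.5 side was not cut in another way. MyP1 of E18.5, with 78.3 CPM of Hlf, held 1071 CPM of Mpo. Whether the direction holds with MyP1 added to the E18.5 cells was not tested. Against P0 HSPC2 alone, 18 of 52 G2 and M phase genes were past 2-fold higher at E18.5 (list median 1.78), beside 2.43% of all genes. The shares of the thinned UMIs were 0.659% and 0.419%. Against all P0 HSPC cells none of them was, and the share at P0 was 0.651%.

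Genes of the fetal program were well above the adult at E18.5, and most were close to P0. Hmga2 stood at 356 CPM, against 263 CPM in P0 cells and 37.99 CPM in adult cells (9.38-fold, 8.15 to 10.8). Lin28b stood at 18.7 and 19.5 CPM and had no UMI in the adult, which makes it at least 33.9-fold higher against a floor of 3 counts. Igf2bp1 stood at 16.6 CPM, 3.57 CPM at P0 (4.63-fold, 3.63 to 5.94) and no UMI in the adult. Igf2bp2 stood at 44.1, 30.8 and 1.28 CPM and Dnmt3b at 152, 94.9 and 25.5 CPM (5.94-fold over the adult). Of 10 genes of the program 8 were past 2-fold above the adult, with a median of 5.82, beside 8.53% of all genes, and 8 were past it after setting the median of all genes to 1. Against P0 only Igf2bp1 and Mycn were. Of 7 imprinted growth genes 6 were above the adult, and in this list Meg3 had 51 of its 113 E18.5 UMIs in 1 cell. The G2 and M phase list had 19 of 52 genes above the adult, and 6 after centring. Hbb-bt stood at 470 CPM, 315 at P0 and 39.1 in the adult (12.0-fold, 10.5 to 13.8). Dntt went the other way, at 3.79 against 336 CPM in the adult (0.0113-fold), and Lars2, a mitochondrial tRNA synthetase gene, at 133 against 3956 CPM, a level that stands apart in the adult library.

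**Figure D5:**
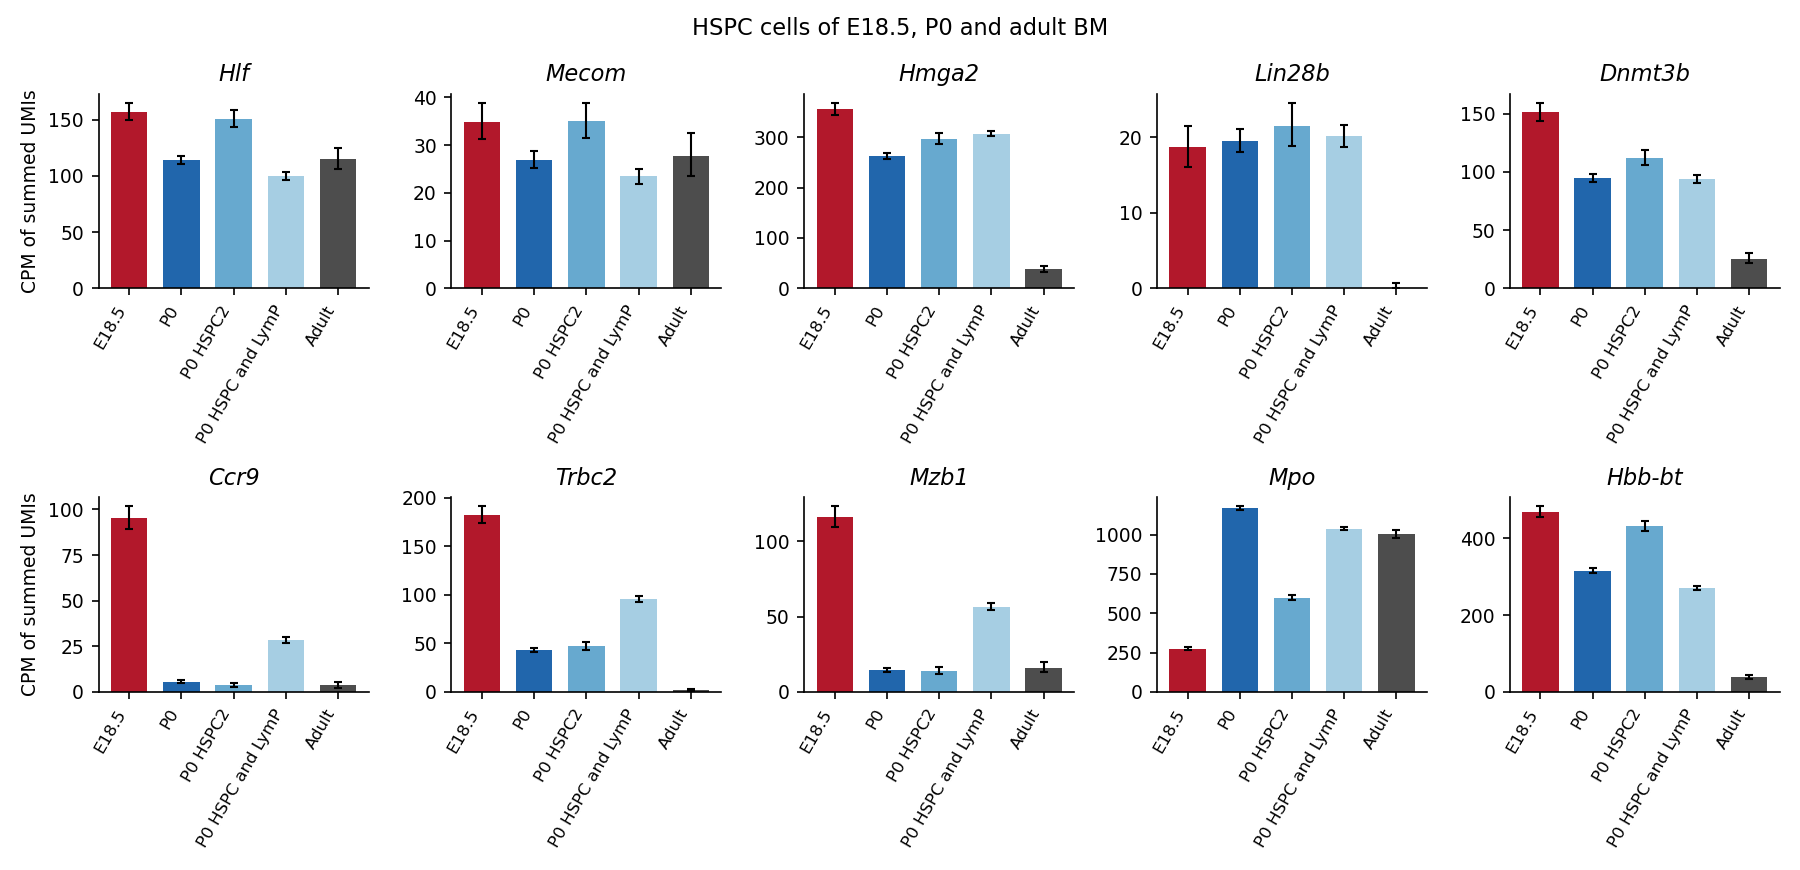
CPM of summed UMIs of 10 genes in HSPC cells of E18.5, P0 (all HSPC clusters, the HSPC2 cluster alone, or HSPC and LymP clusters together) and adult BM, with lines for the exact Poisson 95% interval. Hmga2, Lin28b, Dnmt3b and Hbb-bt are low in the adult, and Ccr9, Trbc2 and Mzb1 are highest at E18.5, by less once the LymP cluster of P0 is counted in.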

How the data were processed

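Sorted BM cells were run on 10x 3' v3.1 chips with antibody tags. Per the methods of the study and the submitters' processing notes, the authors made the UMI counts with Cell Ranger 3.1.0 on mm10 and kept cells by genes, UMIs and mitochondrial share, leaving out the deepest and the shallowest cells of each sample, which can remove both doublets and the largest cells. They clustered and named the cells with Seurat 3.1.5 in R 4.0. The deposited tables hold raw counts of 20275 genes and 29 antibodies in 56201 cells. The mitochondrial fraction of each cell was deposited by the authors as the share of its UMIs, and the hscScore is the score they computed per cell (settings not given in the sources used here).

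From these, UMIs were summed over cells and scaled to CPM (Python 3.11.15, numpy 2.4.6, scipy 1.17.1, pandas 2.3.3, matplotlib 3.10.9). Genes with at least 50 UMIs over both groups were compared and counted past a 2-fold ratio. Levels carry exact Poisson intervals, ratios exact conditional ones and shares exact Clopper-Pearson ones, all at 95%. A group at 0 was set to a floor of 3 counts. Cells are not replicates and each stage has 1 library (E16.5 has 2), so no p-value was computed. Of the antibodies, 4 were used after a CLR over the cells of a library, positive above 1. Shares of cells with a UMI and of cell cycle UMIs used cells thinned to 2000 UMIs. The calculations were tested on simulated Poisson sums with known fold changes. The intervals rest on the same model, so this does not test genes whose UMIs are concentrated in few cells. No doublet caller was run.

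The cells and gene lists were chosen with earlier results of these data known. Genes named are list members, Igf1r, Cxcr4, and the 20 highest and 10 lowest ratios against the other cells and 10 each way against P0 and adult, at 100 CPM and 50 UMIs or more, without mitochondrial, ribosomal, rRNA-like and sex-linked genes. Upstream sequences come from RefSeq on GRCm38.p6. Results for 2 genes are not reported here.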

Additional observations from a re-analysis of the deposited data

Results flagged for a closer look

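The report uses 4 of the 29 antibodies. Outside them, 4 antibodies had more counts in the E18.5 HP library than the limit that a count of 0 allows, which is 3 counts. CD127, the protein of Il7r, had 51 counts in 47 cells, 12 of them in HSPC cells. CD73 had 41 counts in 35 cells, 6 of them in HSPC cells. CD31 had 13 counts and CD140a had 5 counts, each in 5 cells and with none in HSPC cells. Whether these antibodies were part of the panel used at E18.5 was not tested.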

How the results depend on the processing

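Of 150 alternatives to 40 values, 98 stayed within counting error or 1.5 times the reported count, 52 moved and 0 changed sign (a count of genes has no sign). Not counted as changes of sign were a turned balance of gene counts against the adult and the G2 and M phase share. Without thinning, that share took the opposite order between HSPC cells and the other cells. The share of HSPC cells was 15.3% without undefined clusters and 15.4% among cells of at least 1000 UMIs. With the mean of per-cell CPM, Hlf, Mecom and Cd34 were 10.2-fold, 5.87-fold and 2.99-fold above the other cells. Among alternatives chosen after seeing the data, Hlf and Mecom were 6.30-fold and 8.16-fold without cells sharing a barcode, and the 3 markers were 4.57-fold, 6.33-fold and 2.03-fold above the other progenitors, where 449 genes were lower. At a minimum of 10 UMIs 1402 genes were higher than in the other cells, and at 200 UMIs 392 were higher and 937 lower. The Sca-1 share differed by 37.9 points at a CLR of 1.5 and 33.4 points with the CLR across the antibodies of a cell, the CD135 share by 34.8 points at 0.75 and 9.31 at 1.5, and the CD48 share by 3.50 points with the CLR across antibodies. At 0.75 and 1.5 the ST-HSC gate held 2.84% and 16.8% of HSPC cells, MPP2 12.1% and 1.80%, MPP4 24.2% and 3.87%, Sca-1+ CD135+ CD150+ 10.8% and 0.773%, and Sca-1- 25.3% and 55.7%, so that the sizes of the gates depend on the level. The Sca-1 ratio was 2.40 for Hbb-bt and 0.429 for Mpo at 0.75, and the CD135 ratio 2.04 for Trbc2 and 0.423 for Mecom at 1.5.

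Against P0, 763 genes were higher and 620 lower at 10 UMIs and 130 and 142 at 200 UMIs. Against HSPC4 of P0 alone 812 were higher, and against HSPC2 alone 183 were lower. Against the adult, 1387 were higher and 977 lower at 10 UMIs, 508 and 149 at 200 UMIs, and 401 and 641 with the median of ratios, which turns the balance. Against the first library of E16.5, 1726 were lower at 10 UMIs and 273 higher and 263 lower at 200 UMIs. Against the other, 1348 were higher and 1075 lower at 10 UMIs and 358 and 243 at 200 UMIs. Apart from the median of ratios, the causes were not tested. TMM and a split into HSPC sub-clusters were not run, the latter because the library has 1 such cluster. No paired analysis was possible because each stage but E16.5 has 1 library. With 1 library per stage, no interval here covers the spread between mice or libraries.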
